A study of Mus musculus with 10 samples.

Results

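The 31 genes described here act in cholesterol synthesis and transport, and their expression was compared in the nucleus accumbens (NAc) of mice of the strains DBA/2J (D2) and C57BL/6J (B6). The genes were taken from a list of symbols matched to Ensembl gene IDs on the GRCm39 mouse genome. All 31 of the 31 symbols were found among the 29883 genes of the count table. The study addressed exon use and splicing of Ninein, a candidate gene for the anxiolytic response to ethanol, in these inbred strains, and the same libraries give the level of every gene. RNA was measured by poly-A RNA-seq in 5 B6 and 5 D2 males, with 1 library from each mouse. The mice were ethanol-naive, were housed 4 to a cage and were killed at 9 weeks of age. No mouse carried a transgene or received a treatment, so the groups differed by strain. Mice of an inbred strain are nearly alike genetically, so the spread between replicates is the spread between animals of 1 genotype. The tissue was a dissected block of the ventral striatum that holds all its cell types, and in such bulk RNA fewer cells of a type and less RNA per cell cannot be told apart.

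Cholesterol in the brain is made locally, because the blood-brain barrier keeps out the lipoproteins of the blood. Acetyl-CoA is built into mevalonate and then into squalene, squalene is closed into lanosterol, and lanosterol is trimmed to cholesterol. Low sterol in the endoplasmic reticulum releases the SREBP transcription factors, which switch on most genes of the pathway. Oligodendrocytes use much of the product for myelin, astrocytes export sterol to neurons through ABC transporters, and neurons dispose of the excess as 24-hydroxycholesterol.

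The libraries held between 96977262 and 111468080 counts in B6 and between 104443243 and 116776714 counts in D2, a difference that did not pass an exact permutation test (two-sided p = 0.0635, n = 5 mice per strain). Of the 8 markers of striatal projection neurons, all were detected in every mouse, with a summed level of 3634 to 4813 CPM, the usual unit of counts scaled to the size of each library, in B6 and 3090 to 3744 CPM in D2. B6 replicates 3 and 5 stood apart from the rest of their strain. The summed level of 6 markers of cortex projection neurons, all detected in every mouse, was 937 and 950 CPM in these mice and 77.1 to 160 CPM in the other 3 B6 mice. In D2 the same sum ran from 217 to 593 CPM, so the D2 mice lay between the parts of the B6 group. Replicates 3 and 5 were also the most alike pair of libraries, but they differed by more than sampling noise and were kept as separate mice. The summed level of 8 oligodendrocyte markers was 4441 to 6398 CPM in B6, highest in replicates 3 and 5, and 3353 to 4905 CPM in D2. Calls among the 31 genes that moved with these libraries or markers are given with their values in the other fits.

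Of the 31 cholesterol genes, 7 differed between the strains at an adjusted p under 0.05 in edgeR's quasi-likelihood test, 3 higher and 4 lower in D2. Lower in D2 were the late synthesis enzymes Cyp51 and Sc5d, the cholesterol-esterifying enzyme Soat1 and the lysosomal carrier Npc2. Higher in D2 were the sterol transfer protein Stard4, the efflux transporter Abca1 and the SREBP inhibitor Insig2. The largest of these differences was that of Cyp51, at -0.42 on the log2 scale, where a negative value means a lower level in D2. Strain differences were common across the genome, and 5478 of 29883 genes (18.3%) passed the same threshold. The cholesterol genes are all well expressed, with the lowest mean at 141 counts, and among the 15388 genes that average 100 counts or more 3657 (23.8%) passed. The 7 of 31 cholesterol genes (22.6%) are a share near this background. In that background 10.5% of genes were higher and 13.2% lower in D2. The median log2 fold change of the 31 genes was -0.03, beside 0.0021 for the genes that average 100 counts or more. The levels of the 5 B6 and the 5 D2 mice did not overlap for 6 of the 31 genes, all but Abca1 of the 7, while 20.7% of the well-expressed genes had no overlap.

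**Figure D1:**
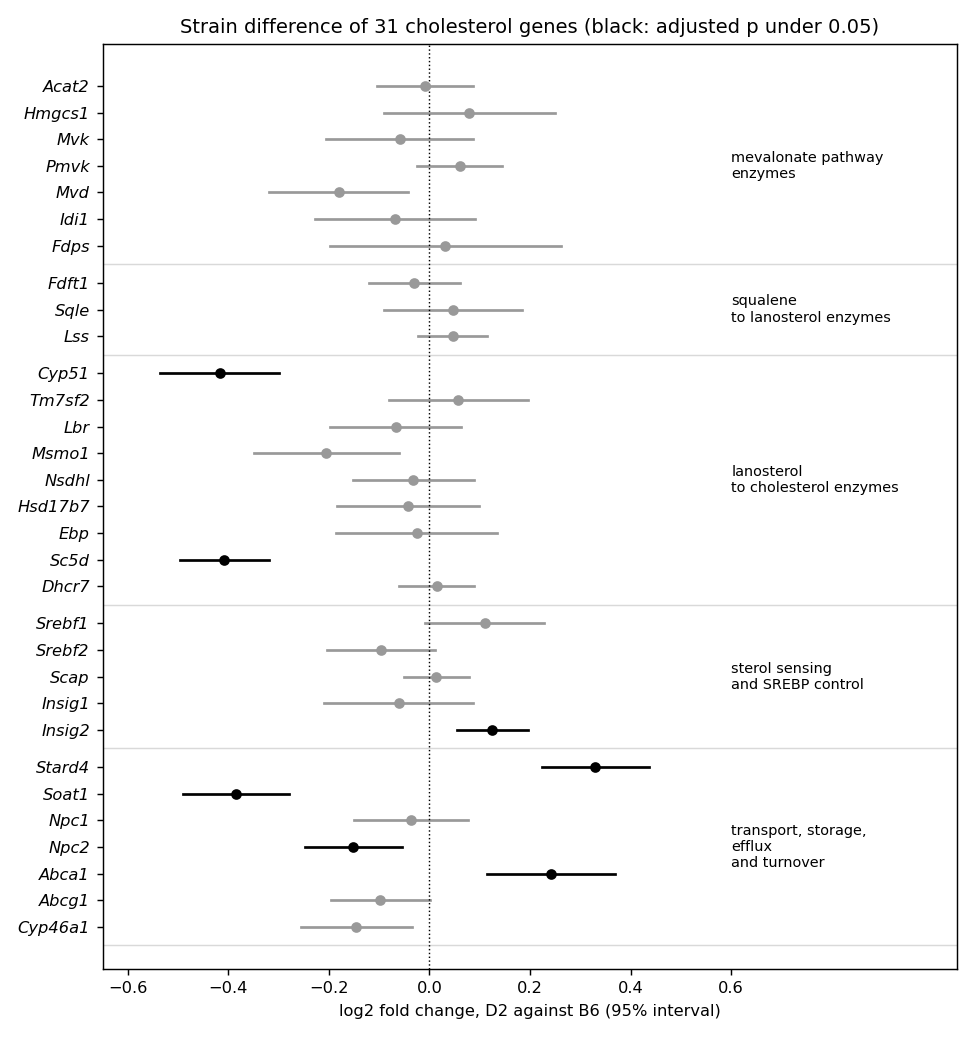
Log2 fold change of each of the 31 genes, D2 against B6, with its 95% interval from the edgeR fit over 10 mice; genes are grouped by role and those past an adjusted p of 0.05 are black. The 7 black points lie between -0.42 (Cyp51) and 0.33 (Stard4), and the intervals of most other genes cross 0.

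Levels of different genes were compared as CPM per kilobase of the canonical transcript. In B6 the highest of the 31 was Cyp46a1, the neuronal 24-hydroxylase that turns cholesterol into its exportable form, at 92.5 ± 5.40 CPM per kb (SD, n = 5). Next came Srebf2, which encodes the SREBP form that drives cholesterol synthesis, at 47.0 ± 3.79 CPM per kb, and Hmgcs1, which makes the HMG-CoA from which mevalonate is formed, at 44.2 ± 6.24 CPM per kb. The levels of Srebf2 and Hmgcs1 did not differ beyond their spread over mice, and by the length of all annotated exons Hmgcs1 was the higher of the pair. The lowest levels in B6 were those of Mvk (2.76 ± 0.299 CPM per kb), Lbr (2.42 ± 0.0577 CPM per kb) and Fdps (0.990 ± 0.123 CPM per kb). Fdps has near-identical copies elsewhere in the genome, described with its values, so its low count is uncertain. In D2 the same 3 genes were at the bottom of the order and Cyp46a1 at the top, at 83.6 ± 5.09 CPM per kb.

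**Figure D2:**
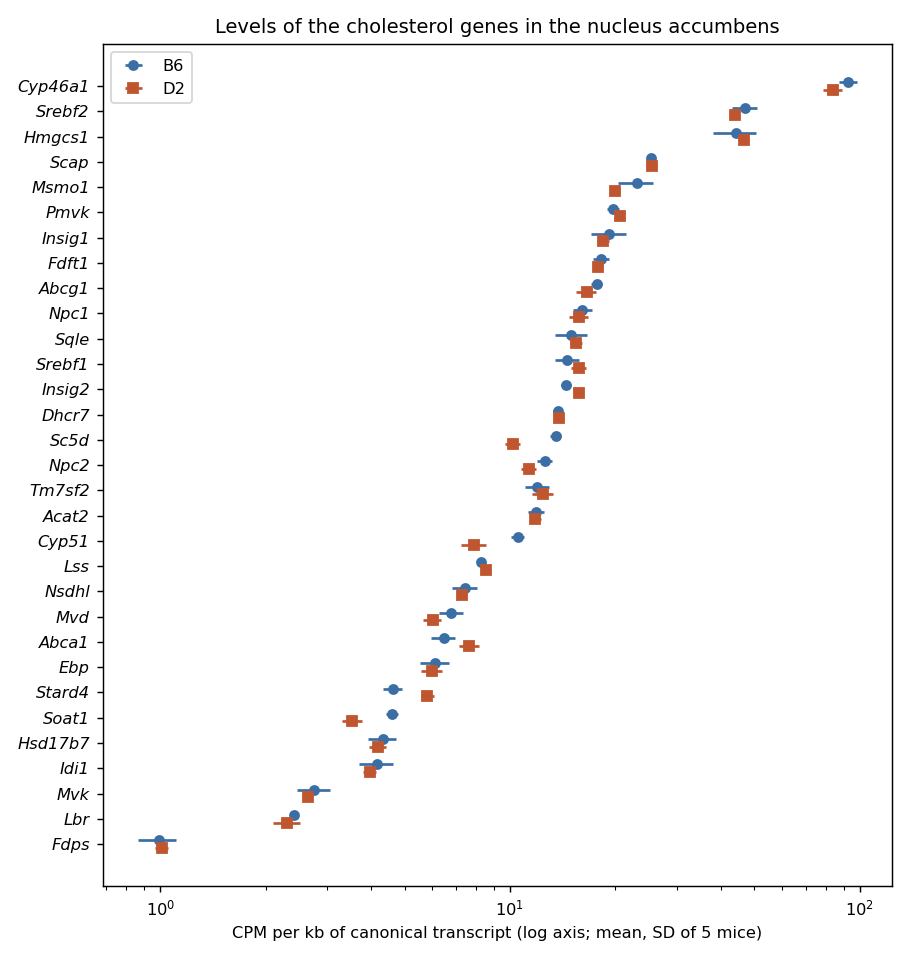
Level of each of the 31 genes in B6 (blue circles) and D2 (orange squares), as the mean and SD of 5 mice in CPM per kb of canonical transcript on a log axis. Genes are ordered by their B6 level, from Cyp46a1 at 92.5 to Fdps at 0.990 CPM per kb, and for most genes the strains lie on top of each other.

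None of the 7 enzymes of the mevalonate pathway differed between the strains at the threshold, with a median log2 fold change of -0.01. Acat2, the thiolase that joins acetyl-CoA units, was at 31.7 ± 1.74 CPM in B6 and 31.5 ± 1.11 CPM in D2 (SD, n = 5 each). Near-identical sequence, at least 95% identical over 150 bases or more, was found elsewhere in the genome for 29.7% of the Acat2 transcript, in the neighbouring gene Acat3 on chromosome 17, so reads of the pair may be shared. Hmgcs1 was at 181 ± 25.6 CPM in B6 and 191 ± 4.97 CPM in D2. The B6 mice split for Hmgcs1, with 209.3 and 208.2 CPM in replicates 3 and 5 against 157.1 to 170.1 CPM in the other 3, while the D2 mice ran only from 184.7 to 196.4 CPM. The D2 values fell in the gap between the parts of the B6 group. The log2 fold change of Hmgcs1 was 0.08 (SE 0.08, edgeR adjusted p = 0.57) with all mice. Without B6 replicates 3 and 5 it was 0.23 (edgeR adjusted p = 7.7e-04), and in that fit all 6 cortex markers were higher in D2 as well. With the cortex marker level as a covariate, the log2 fold change of Hmgcs1 was 0.02 (edgeR adjusted p = 0.70).

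The kinases Mvk and Pmvk, which phosphorylate mevalonate in turn, were at 13.6 ± 1.47 and 23.6 ± 0.897 CPM in B6 and at 13.01 ± 0.199 and 24.6 ± 0.638 CPM in D2. Mvd, the decarboxylase that yields isopentenyl diphosphate, was at 13.1 ± 1.04 CPM in B6 and 11.5 ± 0.668 CPM in D2. Its log2 fold change of -0.18 (SE 0.06) was the largest in this group but missed the threshold (edgeR adjusted p = 0.072). Mvd passed it in 3 of the 21 alternatives described below, among them the fit with the cortex marker covariate (edgeR adjusted p = 0.0099). Over the alternatives its log2 fold change ran from -0.21 to -0.07. Mvd was at 14.1 and 14.2 CPM in B6 replicates 3 and 5 and at 12.0 to 12.7 CPM in the other B6 mice. In D2 it ran from 10.8 to 12.2 CPM. Idi1, the isomerase of isopentenyl diphosphate, was at 10.8 ± 1.20 CPM in B6 and 10.3 ± 0.446 CPM in D2. Fdps, which builds farnesyl diphosphate, was at 1.29 ± 0.161 CPM in B6 and 1.32 ± 0.0552 CPM in D2. Pseudogene copies cover 95.8% of the Idi1 transcript and, on 4 chromosomes, 91.3% of the Fdps transcript. Reads that fit several places may have been left out of these counts, so both levels are uncertain.

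The 3 enzymes from squalene to lanosterol also missed the threshold with all mice, with a median log2 fold change of 0.05. Fdft1, the squalene synthase, was at 63.4 ± 3.51 CPM in B6 and 62.0 ± 2.02 CPM in D2. A pseudogene matches 48.0% of its transcript, and 24.8% of its exon bases lie opposite those of Ctsb, which is far more abundant. Sqle, the squalene epoxidase, a rate-limiting step, was at 42.1 ± 4.43 CPM in B6 and 43.4 ± 1.79 CPM in D2. Like Hmgcs1 it was highest within B6 in replicates 3 and 5, at 45.7 and 47.9 CPM against 38.3 to 39.3 CPM in the others. Its log2 fold change was 0.05 (SE 0.06) with all mice, 0.16 without these B6 mice (edgeR adjusted p = 0.015) and 0.00 with the cortex marker covariate (edgeR adjusted p = 0.99). Lss, which closes the ring to lanosterol, was at 52.8 ± 1.12 CPM in B6 and 54.6 ± 1.62 CPM in D2, with a 95% interval of its log2 fold change from -0.02 to 0.11.

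Of the 9 enzymes from lanosterol to cholesterol, 2 (22.2%) were lower in D2, beside 23.8% of well-expressed genes that differed in either direction. Cyp51 encodes the lanosterol 14-demethylase, the first step of this stretch. Its level in B6 replicates 1 to 5 was 52.6, 52.3, 53.0, 48.7 and 55.1 CPM. In D2 replicates 1 to 5 it was 44.5, 38.7, 36.5, 39.4 and 36.8 CPM. Every D2 mouse was below every B6 mouse. The D2 mean was 0.749 times the B6 mean, a log2 fold change of -0.42 (SE 0.05, edgeR adjusted p = 1.2e-04). Cyp51 (chr5:4123416-4154751, minus strand) overlaps the opposite-strand gene Akap9 over 1253 exon bases, 21.1% of its own. Akap9 averaged 24560 counts per library and Cyp51 4916. The strand setting of the counting is not given in the sources used here, so reads of Akap9 in the shared bases could not be set apart.

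Sc5d encodes the sterol C5-desaturase, which makes 7-dehydrocholesterol. The B6 mice had 66.8, 64.4, 68.1, 61.7 and 66.3 CPM in replicates 1 to 5. The D2 mice had 53.0, 49.8, 46.4, 49.3 and 48.2 CPM. The lowest B6 mouse was above the highest D2 mouse. At 0.754 times the B6 mean, the D2 mean gave a log2 fold change of -0.41 (SE 0.04, edgeR adjusted p = 1.2e-05), the smallest adjusted p of the 31 genes. Sc5d (chr9:42162891-42175605, minus strand) shares no exon bases with another annotated gene and has no near-identical copy. Cyp51 and Sc5d were both high in all 5 B6 mice, replicates 3 and 5 included, and without those mice their log2 fold changes were -0.39 and -0.38.

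The other 7 enzymes of this stretch missed the threshold. Msmo1, a C4-methyl oxidase, came nearest, with 60.2 ± 6.88 CPM in B6 and 52.2 ± 1.72 CPM in D2 and a log2 fold change of -0.20 (SE 0.07, edgeR adjusted p = 0.051). Msmo1 was at 66.4 and 68.4 CPM in B6 replicates 3 and 5 and at 52.4 to 57.3 CPM in the other B6 mice, which overlapped the D2 range of 49.2 to 53.5 CPM. Without those B6 mice its log2 fold change was -0.09 (edgeR adjusted p = 0.20), and with the cortex marker covariate it was -0.25 (edgeR adjusted p = 4.8e-04). The sterol reductases Tm7sf2 and Lbr, which share the C14 reduction, were at 17.8 ± 1.39 and 12.4 ± 0.297 CPM in B6 and at 18.5 ± 1.28 and 11.9 ± 1.03 CPM in D2. Tm7sf2 shares 10.8% of its exon bases with Vps51 on the same strand, so reads there could belong to either gene. Nsdhl and Hsd17b7, which with Msmo1 remove the C4 methyl groups, were at 19.6 ± 1.64 and 20.0 ± 1.85 CPM in B6 and at 19.1 ± 0.473 and 19.4 ± 1.08 CPM in D2. Ebp, the sterol isomerase just before Sc5d, was at 10.6 ± 1.02 CPM in B6 and 10.4 ± 0.719 CPM in D2. Dhcr7, the reductase that follows Sc5d, was at 40.4 ± 1.23 CPM in B6 and 40.8 ± 1.29 CPM in D2. The log2 fold change of Dhcr7 was 0.01, with a 95% interval from -0.06 to 0.09, which does not reach the size of the Sc5d difference.

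Promoters are shown for Hmgcs1, Cyp51, Sc5d and Abca1, as a synthesis gene with a sterol regulatory element, the 2 synthesis enzymes that differed and an efflux gene that differed. Each is the 150 bases before the RefSeq gene start, 5′ to 3′ on the gene's own strand. The sequences are those of RefSeq (GRCm38.p6) and were placed by exact match on GRCm39. They are the B6 reference, and no D2 sequence was read. Capitals mark the sterol regulatory element core TCACNCCAC, the NF-Y box CCAAT and the Sp1 box GGGCGG, on either strand. The windows lie at chr13:120151737-120151886 (plus strand) for Hmgcs1, chr5:4154698-4154847 (minus) for Cyp51, chr9:42175597-42175746 (minus) for Sc5d and chr4:53159896-53160045 (minus) for Abca1.
Hmgcs1: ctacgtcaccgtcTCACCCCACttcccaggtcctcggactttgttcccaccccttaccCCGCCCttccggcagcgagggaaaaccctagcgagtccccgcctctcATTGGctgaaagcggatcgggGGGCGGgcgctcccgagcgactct
Cyp51: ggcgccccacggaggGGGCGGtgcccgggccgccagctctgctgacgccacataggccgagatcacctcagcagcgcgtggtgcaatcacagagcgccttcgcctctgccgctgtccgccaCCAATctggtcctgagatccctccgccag
Sc5d: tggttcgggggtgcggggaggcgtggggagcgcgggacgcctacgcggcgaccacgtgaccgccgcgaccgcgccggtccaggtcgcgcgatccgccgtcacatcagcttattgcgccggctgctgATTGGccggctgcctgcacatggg
Abca1: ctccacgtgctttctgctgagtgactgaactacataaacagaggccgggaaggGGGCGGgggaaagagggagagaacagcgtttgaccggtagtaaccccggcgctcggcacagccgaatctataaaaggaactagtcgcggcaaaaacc

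In Hmgcs1 the sterol regulatory element core begins at base -137 and is followed by Sp1 boxes and an NF-Y box. Cyp51 holds an Sp1 box at -135 and an NF-Y box at -29, Sc5d an NF-Y box at -24, and Abca1 an Sp1 box at -97. RefSeq windows of 250 bases before to 50 after the start were found for 25 of the 31 genes, with 33 windows in all since some genes have several starts. Of these 33 windows 1 (3.0%) held the exact element core, against 1.24% of the 32851 windows of all genes. The NF-Y box was in 23 (69.7%), against 37.4% of all windows, and the Sp1 box in 28 (84.8%), against 35.7%. Counted by gene, with a box in any window of the gene, the NF-Y box was in 22 of the 25 genes (88.0%), against 41.1% of 27025 genes, and the Sp1 box in 24 (96.0%), against 38.2%. The base composition of the windows was not compared, and a match is only a run of letters. Of the genes that differed, Cyp51, Sc5d, Soat1 and Npc2 held both boxes in the window nearest the canonical start. Insig2 and Abca1 held only the Sp1 box there. Among genes that missed the threshold, Msmo1 held both boxes and Srebf1 only the Sp1 box. The windows of Fdps, Abcg1, Fdft1, Sqle, Npc1 and Stard4 were not analysed here.

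Among the 5 genes of sterol sensing and SREBP control, 1 (20%) was higher in D2, beside 23.8% of well-expressed genes in either direction. The other 4 missed the threshold. Insig2 encodes a membrane protein of the endoplasmic reticulum that holds back the SREBP precursor when sterol is plentiful. The B6 mice had 41.2, 40.1, 39.0, 39.0 and 42.1 CPM of Insig2 in replicates 1 to 5. The D2 mice had 44.7, 44.8, 43.4, 43.2 and 43.6 CPM. The groups did not overlap, but the gap was narrow, from 42.1 to 43.2 CPM. The D2 mean was 1.09 times the B6 mean, with a log2 fold change of 0.13 (SE 0.03, edgeR adjusted p = 0.016). Without B6 replicate 3 the call was lost, at a log2 fold change of 0.11 (edgeR adjusted p = 0.053).

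Insig1, the relative of Insig2 that SREBP itself switches on, was at 52.7 ± 6.13 CPM in B6 and 50.5 ± 1.99 CPM in D2 (log2 fold change -0.06, SE 0.07). In B6 it was at 57.4 and 60.9 CPM in replicates 3 and 5 and at 46.9 to 50.6 CPM in the other mice. A pseudogene on chromosome 3 matches 74.2% of the Insig1 transcript, so its count is uncertain. Srebf2 was at 238 ± 19.2 CPM in B6 and 223 ± 1.93 CPM in D2 (log2 fold change -0.10, SE 0.05, edgeR adjusted p = 0.22). Its D2 mice lay within 220.0 to 224.4 CPM, while B6 ran from 219.0 CPM in replicate 1 to 260.6 CPM in replicate 5. Srebf1, whose main products drive fatty acid synthesis, was at 63.3 ± 4.98 CPM in B6 and 68.3 ± 3.41 CPM in D2 (log2 fold change 0.11, SE 0.05, edgeR adjusted p = 0.21). With the cortex marker covariate both passed the threshold, Srebf2 at -0.13 (edgeR adjusted p = 0.0041) and Srebf1 at 0.15 (edgeR adjusted p = 0.0072). Without B6 replicates 3 and 5 they were at -0.01 and 0.03. Scap, the escort of SREBP to the Golgi, was at 107 ± 2.81 CPM in B6 and 108 ± 2.15 CPM in D2, with a 95% interval of its log2 fold change from -0.05 to 0.08.

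Of the 7 genes of transport, storage, efflux and turnover, 4 (57.1%) differed, 2 in each direction, beside 23.8% of well-expressed genes. Of these 4, only Stard4 and Soat1 passed at an adjusted p of 0.01 or with the oligodendrocyte marker level as a covariate. Stard4 encodes a soluble carrier that moves sterol between membranes. In B6 replicates 1 to 5 it was at 23.2, 23.6, 26.0, 23.5 and 26.4 CPM. In D2 it was at 32.7, 29.0, 30.9, 30.8 and 30.7 CPM. The groups were apart, and the B6 mice nearest to D2 were replicates 3 and 5. Stard4 had a D2 mean 1.26 times that of B6 (log2 fold change 0.33, SE 0.05, edgeR adjusted p = 3.4e-04), the largest rise of the 31 genes. Without B6 replicates 3 and 5 the log2 fold change was 0.40.

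Soat1 encodes the enzyme that esterifies cholesterol for storage in lipid droplets. Its B6 levels were 41.2, 38.4, 37.0, 38.6 and 37.7 CPM in replicates 1 to 5. Its D2 levels were 32.4, 30.6, 28.6, 27.4 and 28.9 CPM. The strains did not overlap. The D2 mean was 0.766 times the B6 mean (log2 fold change -0.38, SE 0.05, edgeR adjusted p = 9.1e-05).

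Npc1 and Npc2 act together to release cholesterol from the lysosome. Npc1, the membrane protein of the pair, was at 85.7 ± 5.31 CPM in B6 and 83.6 ± 5.34 CPM in D2 (log2 fold change -0.04, 95% interval from -0.15 to 0.08). Npc2, the soluble partner, was at 48.8, 54.4, 49.4, 48.3 and 50.1 CPM in B6 replicates 1 to 5. The D2 mice had 47.2, 46.5, 44.6, 41.4 and 46.2 CPM. The groups did not overlap, but 48.3 and 47.2 CPM nearly met. The log2 fold change of Npc2 was -0.15 (SE 0.04, edgeR adjusted p = 0.031). It was no longer past the threshold without B6 replicate 2 (edgeR adjusted p = 0.071), without D2 replicate 3 (edgeR adjusted p = 0.054) or without D2 replicate 4 (edgeR adjusted p = 0.070). With the oligodendrocyte marker level as a covariate it was -0.10 (edgeR adjusted p = 0.29). Isca2 lies opposite 9.7% of the Npc2 exon bases.

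Abca1 encodes the transporter that loads cholesterol onto lipoprotein particles. In B6 it was at 74.3, 68.5, 61.1, 65.1 and 62.7 CPM in replicates 1 to 5. In D2 it was at 86.0, 78.6, 77.3, 78.7 and 71.5 CPM. D2 replicate 5 was below B6 replicate 1, and the other 4 D2 mice were above all B6 mice. The log2 fold change of Abca1 was 0.24 (SE 0.06, edgeR adjusted p = 0.011). Replicates 3 and 5 were at the low end of B6 for this gene, and without them the value was 0.18 and missed the threshold (edgeR adjusted p = 0.051). With the oligodendrocyte marker covariate it was 0.21 (edgeR adjusted p = 0.092), and with the cortex marker covariate 0.28 (edgeR adjusted p = 2.5e-04). Abcg1, the partner that moves sterol to larger particles, was at 103 ± 3.63 CPM in B6 and 96.7 ± 6.28 CPM in D2 (log2 fold change -0.10, SE 0.05, edgeR adjusted p = 0.17). Cyp46a1 was at 209 ± 12.2 CPM in B6 and 189 ± 11.5 CPM in D2 (log2 fold change -0.15, SE 0.05, edgeR adjusted p = 0.067).

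**Figure D3:**
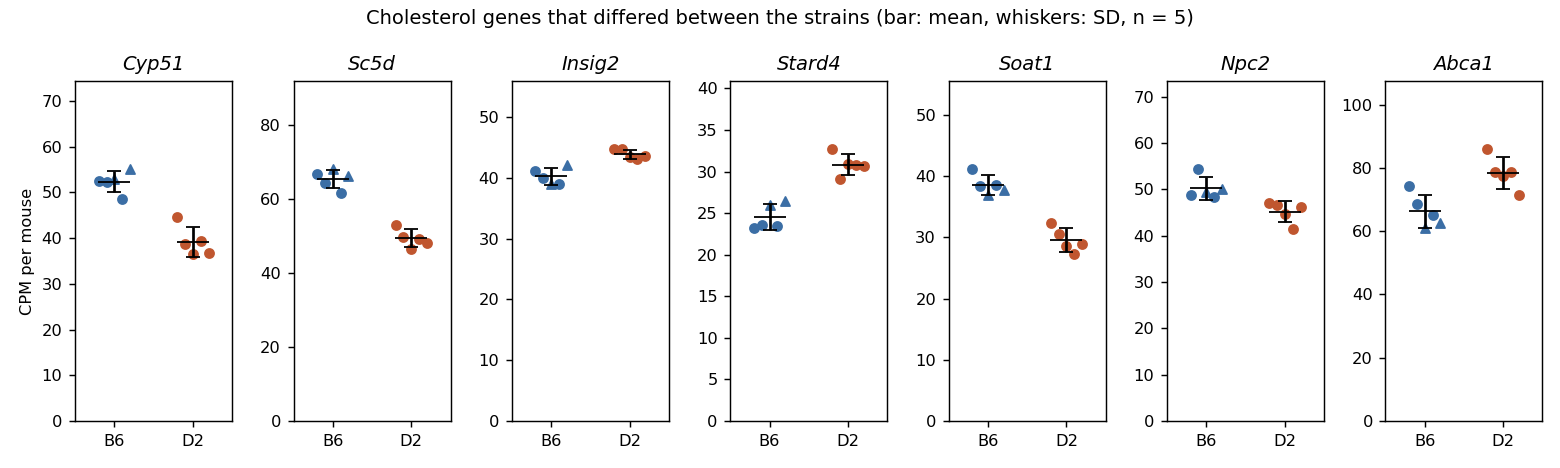
CPM of the 7 genes past the threshold in each of the 5 B6 (blue) and 5 D2 (orange) mice, with bars for the mean and whiskers for the SD; each axis starts at 0 and triangles mark B6 replicates 3 and 5. The strains are apart in every panel but that of Abca1, where D2 replicate 5 at 71.5 CPM is below B6 replicate 1 at 74.3 CPM.

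The spread between mice was larger in B6 for 21 of the 31 genes and larger in D2 for 10. For the 19 synthesis enzymes the counts were 14 and 5, with a median coefficient of variation of 7.99% in B6 and 4.12% in D2. The coefficient for Srebf2 was 8.06% in B6 and 0.865% in D2, and that for Hmgcs1 14.1% and 2.59%. The order was the other way for Lbr, at 2.39% and 8.70%, for Cyp51, at 4.44% and 8.24%, and for Soat1, at 4.08% and 6.61%. Many of the enzymes were highest in B6 replicates 3 and 5. Within B6 these libraries had the highest summed cortex, oligodendrocyte, astrocyte and endothelial markers. They also had the lowest sums of striatal projection neuron markers, at 3659 and 3634 CPM. Of the 19 synthesis enzymes, B6 replicate 3 was among the 2 highest B6 mice in 17, and so was B6 replicate 5. Replicate 5 was the highest B6 mouse for 12 enzymes and replicate 3 for 6. Their median level over the enzymes was 105% and 107% of the B6 mean, while the other 3 B6 mice were at 92.4%, 97.4% and 95.2%. In D2 the same medians lay between 98.1% and 102%. The part of tissue composition in these levels was not tested beyond the fits with marker covariates.

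**Figure D4:**
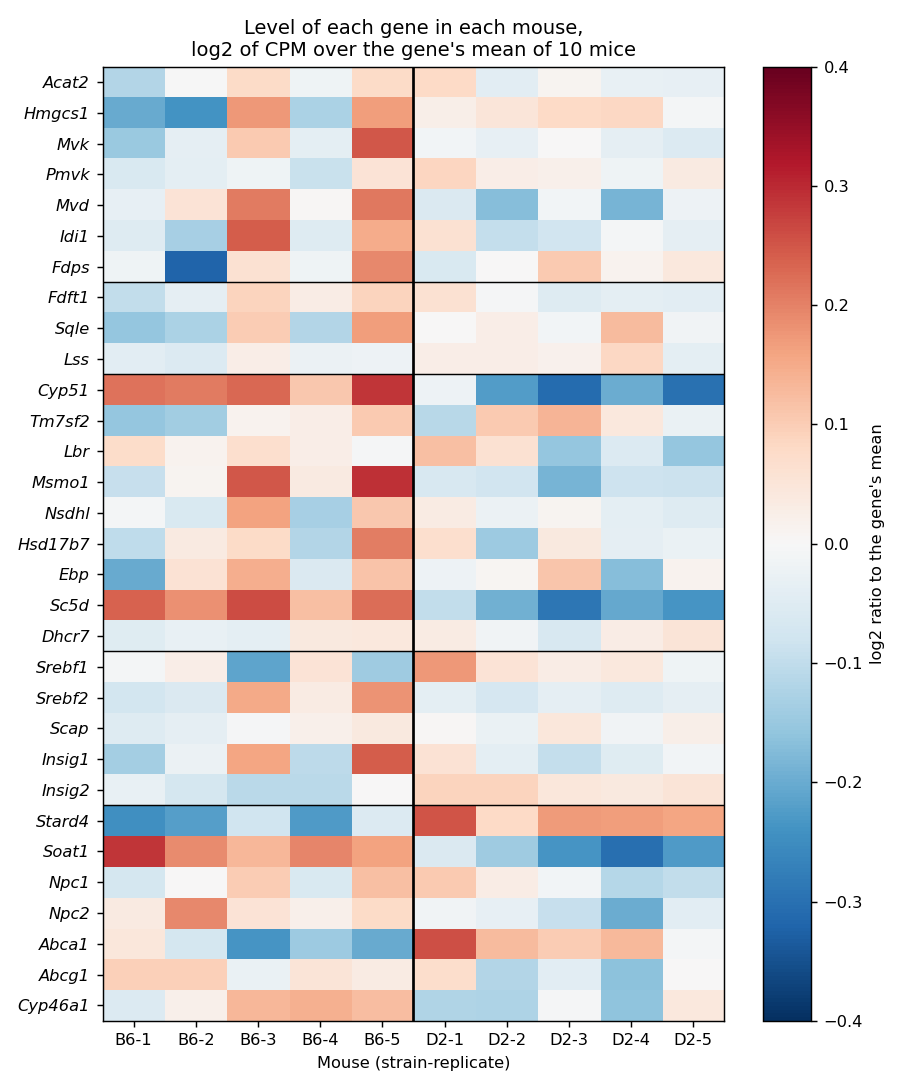
Level of each of the 31 genes in each mouse, as the log2 ratio of its CPM to the mean of the gene over 10 mice (colour bar from -0.4 to 0.4), with mice in columns and genes grouped by role. B6 replicates 3 and 5 are red for most synthesis enzymes, while Cyp51, Sc5d and Soat1 lie above the gene's mean in all 5 B6 mice and below it in all 5 D2 mice.

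With B6 replicates 3 and 5 left out, 8 of the 31 genes passed the threshold, among 5745 of all genes. Of the 7, 6 were kept, Abca1 was lost, and Hmgcs1 and Sqle were added. With the cortex marker level as a covariate 12 passed, among 7846 of all genes, and the additions were Mvd, Msmo1, Srebf1, Srebf2 and Cyp46a1. With the oligodendrocyte marker level as a covariate 5 passed, among 3966 of all genes, without Npc2 and Abca1. Cyp51, Sc5d, Insig2, Stard4 and Soat1 passed in all 3 of these fits. Leaving out B6 replicate 1 alone brought the genes lower in D2 from 4 to 7, by adding Mvd, Msmo1 and Cyp46a1. In that fit 5676 of all genes (19.0%) passed.

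**Figure D5:**
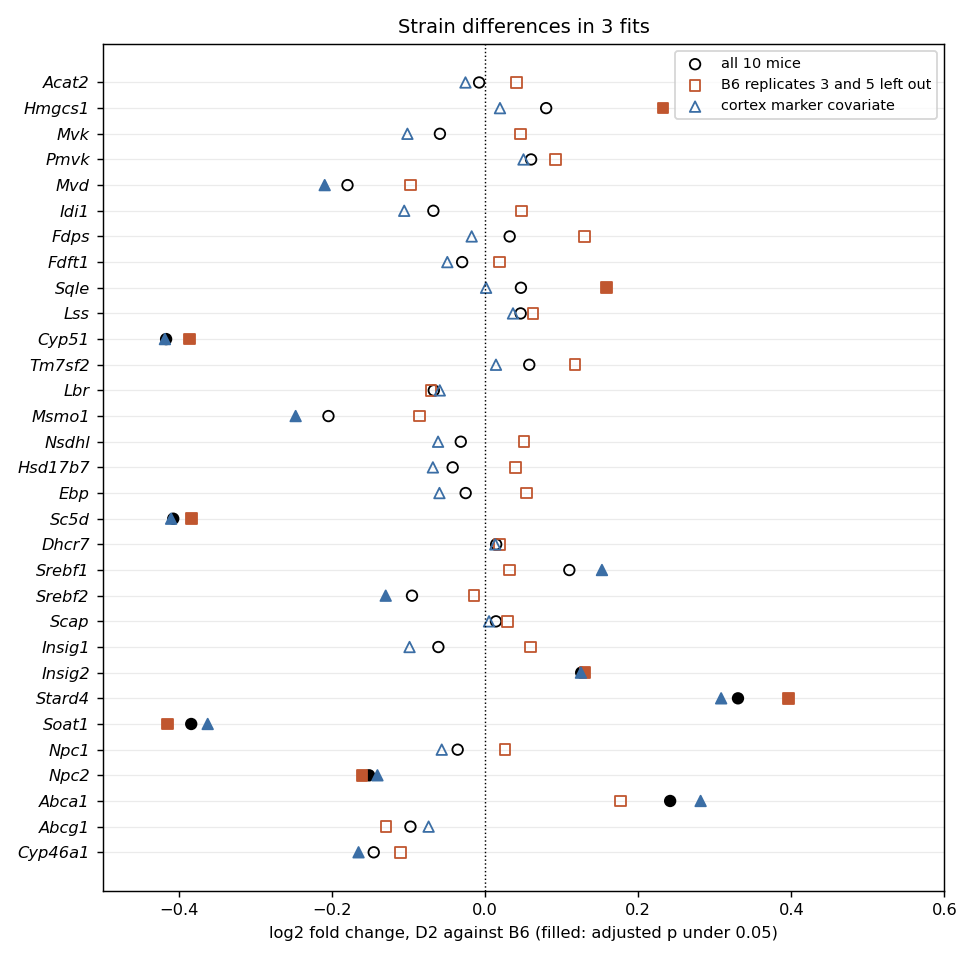
Log2 fold change of each of the 31 genes in 3 edgeR fits, with all 10 mice (circles), without B6 replicates 3 and 5 (squares) and with the cortex marker level as a covariate (triangles); filled symbols have an adjusted p under 0.05. Cyp51, Sc5d, Insig2, Stard4, Soat1 and Npc2 are filled in all 3, while the symbols of Hmgcs1 spread from 0.02 to 0.23 and only its square is filled.

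Related genes outside the 31 were read from the same fit, and 13 of 66 (19.7%) differed, 4 higher and 9 lower in D2. The same threshold was passed by 18.3% of all genes and by 23.8% of those that average 100 counts or more. Without B6 replicate 2, 8 of the 66 differed, beside 16.3% of all genes. Of 16 fatty acid genes and other SREBP targets, 5 were lower in D2 and none higher, with a median log2 fold change of -0.05. The split of this list depended on the fit, with 1 higher and 3 lower without B6 replicates 3 and 5, 4 higher and 5 lower with the cortex marker covariate, and 2 lower with the oligodendrocyte marker covariate. It also had 2 lower without B6 replicate 2 or without D2 replicate 5. The largest was Acaca, the acetyl-CoA carboxylase that commits carbon to fatty acids, at 86.3 ± 7.52 CPM in B6 and 55.1 ± 2.84 CPM in D2 (log2 fold change -0.65, edgeR adjusted p = 5.1e-06). Me1, which supplies NADPH, and the desaturase Scd2 followed at -0.21 (edgeR adjusted p = 0.031) and -0.18 (edgeR adjusted p = 0.016). With the oligodendrocyte marker covariate neither passed, at an edgeR adjusted p of 0.37 for Me1 and 0.14 for Scd2, and Me1 also missed the threshold without B6 replicates 3 and 5 (edgeR adjusted p = 0.11). Me1 was also lost in 6 of the 10 fits that left out 1 mouse, those without B6 replicates 2, 3 or 5 or D2 replicates 2, 4 or 5. Acaca passed in each of these fits. Among 12 genes of the non-sterol branch of the mevalonate pathway 2 were lower, the geranylgeranyl diphosphate synthase Ggps1 at -0.25 (edgeR adjusted p = 3.3e-04) and the ubiquinone enzyme Coq2 at -0.24 (edgeR adjusted p = 3.4e-04). Both passed in every alternative, and with the cortex marker covariate 2 other genes of this list were higher in D2. Of 12 genes of SREBP processing and sterol-regulated degradation, only Mbtps2, the site-2 protease of SREBP, passed with all mice, at 0.15 (edgeR adjusted p = 0.026). Mbtps2 lost its call without B6 replicate 2, B6 replicate 4, D2 replicate 3 or D2 replicate 4, with edgeR adjusted p between 0.058 and 0.086. The list had 1 higher and 2 lower without B6 replicates 3 and 5 and 3 higher with the cortex marker covariate.

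Of 26 other genes of sterol uptake, transport, efflux and oxysterol, 3 were higher and 2 lower in D2, with a median log2 fold change of 0.02. With the cortex marker covariate 5 were lower, and with the oligodendrocyte marker covariate none. Abca3, a lipid transporter, was at 136 ± 7.63 CPM in B6 and 175 ± 3.75 CPM in D2 (log2 fold change 0.37, edgeR adjusted p = 2.4e-05). Nr1h3, which encodes the sterol-sensing nuclear receptor LXR alpha, an activator of Abca1, was at 2.30 ± 0.118 CPM in B6 and 2.90 ± 0.166 CPM in D2 (log2 fold change 0.33, edgeR adjusted p = 0.0069). With the oligodendrocyte marker covariate Nr1h3 had an edgeR adjusted p of 0.053. Apod, a lipid-binding protein of oligodendrocytes and other glia, was at -0.29 (edgeR adjusted p = 0.044) with all mice. It was at -0.06 (edgeR adjusted p = 0.60) with the oligodendrocyte marker covariate and at -0.23 (edgeR adjusted p = 0.14) without B6 replicates 3 and 5. Apod also missed the threshold without B6 replicates 2, 3 or 5 or D2 replicates 3, 4 or 5, each left out alone. Of the 8 oligodendrocyte markers 5 were lower in D2 with all mice. The count was 8 with the cortex marker covariate and 7 without B6 replicate 1 or without D2 replicate 1. It was 1 without B6 replicates 3 and 5 and 2 without D2 replicate 5.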

How the data were processed

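NAc RNA of 10 mice was sequenced, and the mouse was the replicate. The deposited values are raw read counts per gene. To make them, the authors used fastp, STAR 2.7.10b, SAMtools 1.6 and featureCounts with the Ensembl GRCm39 annotation, and whether the counting used strand is not given in the sources used here. Reads of both strains were aligned to the B6 genome, on which reads with D2 alleles can be lost. Genes were named from the GENCODE GRCm39 annotation, to which 29519 of 29883 IDs matched. The 10 libraries held 96977262 to 116776714 counts each.

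Counts were fitted with edgeR 4.0.16 in R 4.3.3 (TMM scaling, quasi-likelihood F test, two-sided, strain as the only factor, no filter on low counts), adjusted over the whole table by the Benjamini-Hochberg method, at a threshold of 0.05. Levels are TMM-scaled CPM. The SE was taken as the size of the log2 fold change over the root of its F statistic. The fit was tested on simulated data, with strain differences put into known genes. At a simulated log2 fold change of 0.3 it called 21 of 100 such genes, and at 1 it called 97 of 100. Differences near 0.3 were thus mostly missed in the simulation. Near-identical copies were found with blastn 2.17.0. Every one of the 31 genes is named and those past the threshold are given mouse by mouse, and from each related list at most the 3 largest called genes. The genes and lists, including 8 lists of cell type markers, were chosen with earlier results of these data known.

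Alternatives were DESeq2 1.42.0, its size factors, total counts, upper-quartile scaling, filterByExpr, at least 10 counts in every library, the replicate number as a block, a threshold of 0.01 and each mouse left out in turn. The fits without B6 replicates 3 and 5 and with marker covariates (log2 of the summed CPM) were added after seeing the data. Python 3.11.15 and matplotlib 3.10.9 were used for sequences and figures.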

Additional observations from a re-analysis of the deposited data

Results flagged for a closer look

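Msmo1 in D2 replicate 3 was at 49.2 CPM, below the other 4 D2 mice, of which the nearest was at 52.6 CPM. The gap was 0.802 of the range of the 5 D2 mice, above the critical value of 0.71 in Dixon's test. Of 62 groups checked (31 genes in 2 strains) this was the only 1 past that value, and chance alone passes about 1 group in 20.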

How the results depend on the processing

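Cyp51, Sc5d, Stard4 and Soat1 were past the threshold in all 21 alternatives, Insig2 in 19, Abca1 in 18 and Npc2 in 15, which also lost its call under total counts (edgeR adjusted p = 0.10). None of the 7 changed direction. At an adjusted p of 0.01, 3415 of all genes, 4 of the 31 genes (1 of them higher in D2) and 5 of the 66 related genes passed. With the cortex marker covariate 12 of the 31 passed, 8 of them lower in D2, and 24 of the 66, beside 26.3% of all genes. With the oligodendrocyte marker covariate 8 of the 66 passed, beside 13.3% of all genes. When single mice were omitted, between 3 and 7 of the 31 genes were lower in D2, and between 8 and 13 of the 66 differed. The share of all genes past the threshold in these fits ran from 15.5% to 19.0%. DESeq2 called 9 of the 31, adding Mvd and Msmo1, among 6208 of 29877 genes tested (20.8%). Replicate numbers did not pair the mice: same-numbered mice of the strains correlated between -0.44 and 0.40 in their deviations, and no shared litter or day is given. With the replicate block 8 of the 31 genes passed, adding Cyp46a1, among 4731 of all genes. The cause of these shifts was not tested. The outer ends of the 95% intervals of the 24 genes that were not called were -0.35 and 0.26 on the log2 scale. A difference within a gene's own interval could have been missed. Counts of Idi1, Fdps, Insig1, Fdft1 and Acat2 are uncertain through near-identical copies.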

Other observations

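Markers of other cell types of the brain were read from the same edgeR fit. Of 7 astrocyte markers 1 was higher and 3 lower in D2, with a summed level of 3882 to 4377 CPM in B6 and 3993 to 4250 CPM in D2. Of 6 microglia markers 1 was higher and 1 lower, with sums of 326 to 370 CPM in B6 and 289 to 348 CPM in D2. Among 6 markers of oligodendrocyte precursors 1 was higher and 1 lower, at 183 to 209 CPM in B6 and 189 to 213 CPM in D2. None of 5 endothelial markers passed the threshold, and their sums were 171 to 210.0 CPM in B6 and 140 to 191 CPM in D2. Of 6 markers of ependyma and choroid plexus 1 was lower in D2, at 26.1 to 46.4 CPM in B6 and 40.2 to 49.4 CPM in D2. Of 8 markers of striatal projection neurons 5 were lower in D2 and none higher, and of 6 cortex markers none passed with all mice. The part of any of these cell types in the differences of the cholesterol genes was not tested beyond the marker covariates.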
